A study of Mus musculus with 6 samples.

Results

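Long intergenic non-coding RNAs (lincRNAs) are transcripts of genes that lie between protein-coding genes and carry no long reading frame. They were examined here in bone marrow-derived macrophages (BMDMs) of mice, which are differentiated in culture from marrow cells. The lincRNAs described were chosen by level: rows of the deposited table with the gene biotype lincRNA and at least 600 summed counts over the 6 libraries. This left 74 of 5559 lincRNA rows and of 54532 genes in all. The cells came from C57BL/6 mice of 32 to 34 weeks with the genotype Xbp1FL/FL (XWT, floxed alleles) or Xbp1ΔMf (XKO, Xbp1 deleted in macrophages by its label), with 3 libraries each. The Cre driver is not named in the labels. Cells of both groups were primed with lipopolysaccharide (LPS), a bacterial Toll-like receptor ligand, and then spent 48 h in conditioned medium of wild-type primary hepatocytes. The samples analysed here include no unprimed cells and none without the medium, so every comparison is between the genotypes under the same treatment. The Xbp1 protein drives transcription in the unfolded protein response, and the series asks how its loss changes macrophages in the setting of steatohepatitis. The labels leave unsaid if replicates are different animals or cultures. The p-values thus reflect the spread among these libraries only, which could be technical.

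LincRNAs act in several ways. Some stay in the nucleus and organise RNA and protein bodies: Malat1 accumulates in nuclear speckles, which store splicing factors, and Neat1 is the scaffold on which paraspeckles assemble. Some act in the cytoplasm as binding sites for RNA-binding proteins or microRNAs. Others are mainly hosts, whose introns or exons are processed into small nucleolar RNAs (snoRNAs) or microRNAs, or lie beside a coding gene and are transcribed along with it. In macrophages, LPS is known to raise many lincRNAs together with the inflammatory genes near them.

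Sequences are shown for the RNAs that members host and for the start regions of members on which the comparison turns. A microRNA pairs with its targets mainly through its seed, bases 2 to 8 from the 5′ end, which is in capitals in each mature sequence. Within the span and on the strand of 5 of the 72 lincRNAs looked up, RefSeq (GRCm38.p6) places 6 microRNA hairpins. Those of Mir142hg, Ftx, 6720427I07Rik and Snhg20 give the following mature forms, 5′ to 3′.
mmu-miR-142a-5p: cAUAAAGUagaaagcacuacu
mmu-miR-142a-3p: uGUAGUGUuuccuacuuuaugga
mmu-miR-421-5p: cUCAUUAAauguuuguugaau
mmu-miR-374b-5p: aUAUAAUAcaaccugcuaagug
mmu-miR-374b-3p: gGUUGUAUuaucauuguccgag
mmu-let-7d-5p: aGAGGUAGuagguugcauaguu
mmu-let-7d-3p: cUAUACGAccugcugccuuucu
mmu-miR-6516-5p: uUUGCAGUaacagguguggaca
mmu-miR-6516-3p: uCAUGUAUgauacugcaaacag
No seed was shared between these 9 forms. The miR-142 hairpin lies in Mir142hg (chr11:87756864-87756927, plus strand), miR-421 and miR-374b in Ftx (chrX:103572921-103572996 and chrX:103573060-103573154, minus strand), let-7d in 6720427I07Rik (chr13:48536012-48536114, minus strand) and miR-6516 in Snhg20 (chr11:117077348-117077457, plus strand). The libraries measured the long host transcripts and not the mature microRNAs.

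A RefSeq promoter window, 250 bases before to 50 bases after an annotated start, was matched for 36 of the 72 lincRNAs looked up. Printed are those of Gdap10, Gm34643 and Gm10419, which were higher in XKO whichever library was left out, and of Dubr, the most abundant higher member. The fifth is AI839979, lower in XKO. Capitals mark matches to any of 4 motifs searched on both strands: TGACGTGG, the unfolded protein response element bound by XBP1 and ATF6, CCACG, the tail of the ER stress response element, TGAGTCA, bound by AP-1, and TGACGTCA, the cAMP response element. The last 5 letters of the first motif are the second read on the other strand.
Gdap10: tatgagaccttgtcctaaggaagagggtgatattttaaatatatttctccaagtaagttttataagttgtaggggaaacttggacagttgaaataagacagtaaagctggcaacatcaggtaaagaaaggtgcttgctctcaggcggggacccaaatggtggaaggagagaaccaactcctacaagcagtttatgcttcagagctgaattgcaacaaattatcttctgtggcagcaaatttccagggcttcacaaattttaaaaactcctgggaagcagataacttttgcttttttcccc
Gm34643: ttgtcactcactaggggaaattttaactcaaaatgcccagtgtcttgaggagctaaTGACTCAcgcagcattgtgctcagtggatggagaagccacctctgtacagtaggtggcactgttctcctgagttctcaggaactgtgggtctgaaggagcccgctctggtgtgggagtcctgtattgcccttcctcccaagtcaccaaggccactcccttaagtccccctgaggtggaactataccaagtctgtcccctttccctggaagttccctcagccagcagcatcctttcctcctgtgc
Gm10419: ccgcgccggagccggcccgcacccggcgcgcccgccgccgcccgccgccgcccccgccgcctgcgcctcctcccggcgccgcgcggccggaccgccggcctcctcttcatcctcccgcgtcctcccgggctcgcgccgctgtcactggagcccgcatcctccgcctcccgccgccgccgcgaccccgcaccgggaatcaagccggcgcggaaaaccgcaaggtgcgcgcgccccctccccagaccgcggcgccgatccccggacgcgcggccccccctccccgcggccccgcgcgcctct
Dubr: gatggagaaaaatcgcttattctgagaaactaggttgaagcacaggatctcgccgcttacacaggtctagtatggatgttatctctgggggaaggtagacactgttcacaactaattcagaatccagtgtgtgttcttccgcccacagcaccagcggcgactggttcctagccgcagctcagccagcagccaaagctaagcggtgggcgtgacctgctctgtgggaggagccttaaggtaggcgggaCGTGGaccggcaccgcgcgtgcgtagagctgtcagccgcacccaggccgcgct
AI839979: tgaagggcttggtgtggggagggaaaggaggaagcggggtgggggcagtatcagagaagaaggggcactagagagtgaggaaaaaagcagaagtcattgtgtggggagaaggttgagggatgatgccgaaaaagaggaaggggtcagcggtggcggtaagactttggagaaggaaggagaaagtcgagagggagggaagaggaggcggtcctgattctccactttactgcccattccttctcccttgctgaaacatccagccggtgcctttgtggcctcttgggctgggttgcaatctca
These windows lie at chr12:32823866-32824165, plus strand, chr14:103012625-103012924, plus strand, chr5:108367687-108367986, plus strand, chr16:50732724-50733023, minus strand, and chr5:31571348-31571647, minus strand, all GRCm38.p6. For Gdap10 the RefSeq start lies 2244 bases from the start of its row, for Gm10419 168 bases and for Gm34643 33 bases. The window of Gm34643 holds TGAGTCA on the other strand at positions 57 to 63, 188 bases before the start, and that of Dubr holds CCACG on the other strand at positions 248 to 252, across the start. Neither TGACGTGG nor TGACGTCA stood in any of the 36 windows, against 0.676% and 1.79% of the 32851 promoter windows of all genes. CCACG stood in 10 of 36, 2 of them among the 7 windows of higher members (Dubr and Ftx), against 32.8% of all windows. TGAGTCA stood in 3 of 36 (Gm34643, 1110002J07Rik and A330074K22Rik), against 5.20%. Positions are counted from 1 at the 5′ end of the window, and a match describes letters only.

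The libraries held 28354866 to 30891729 counts each. Xbp1 (ENSMUSG00000020484, chromosome 11 from 5520659 to 5525893, plus strand) stood at 158, 157 and 132 CPM (counts scaled to library size) in the XWT libraries and at 76.7, 79.3 and 76.5 CPM in the XKO libraries, a log2 fold change of -0.94 ± 0.08 (SE). Macrophage markers were abundant in all 6 libraries, with 4 of 11 lower in XKO (Lyz2 and the complement genes C1qa, C1qb and C1qc; 9 without XWT 3), and 6 of 6 hepatocyte markers were at 0. The summed level of 13 stromal markers lay between 699 and 812 CPM in XWT and between 67.9 and 83.6 CPM in XKO, with 10 of 11 tested lower, also without XWT 3. That of 10 neutrophil markers lay between 30.8 and 39.8 CPM in XWT and between 61.5 and 65.1 CPM in XKO, with 7 of 8 tested higher, also without XWT 3. Their part in the lincRNA results was not tested, and in bulk RNA fewer cells of a type and less RNA per cell cannot be told apart. On the first principal component of all tested genes (61.4% of the variance), the XKO libraries had scores of 29.2 to 33.8, XWT 1 one of -36.9, XWT 2 one of -38.6 and XWT 3 one of -18.2. XWT 3 thus stood between the groups but nearer its own, and the counts of called lincRNAs and of the gene lists are given with and without it. As XWT 3 was picked by its values, results without it are descriptions and no separate test.

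In XKO, 12 of the 74 lincRNAs rose and 3 fell, by edgeR's quasi-likelihood test with a threshold of 0.05 on the p-value adjusted over 14333 tested genes (Benjamini-Hochberg). Of all tested genes, 6.00% were higher and 7.99% lower by the same rule. The share of the 74 called higher, 16.2%, was thus above this background and the share called lower, 4.05%, below it. The background has no rule of 600 counts, and of all 353 tested lincRNAs 6.23% were higher and 0.850% lower. With at least 600 counts, 7.04% of 10015 protein-coding genes, 6.82% of 44 antisense genes and 12.5% of 48 processed transcripts were higher. So were 15.4% of 26 genes of the biotype TEC, 1.38% of 218 processed pseudogenes and 0% of 11 bidirectional promoter lncRNAs. The median log2 fold change of the 74 was 0.24, with 55 above 0, beside a median of 0.001 over all tested genes. In 27 lincRNAs every XKO library was above every XWT library and in 6 every one was below, with 17.5% and 18.6% of all tested genes as background. The remaining 41 overlapped between the groups. All 74 passed the filter on low counts. In the authors' deposited table the same 15 lincRNAs had an adjusted p under 0.05, in the same directions.

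Malat1 and Neat1 made up most of the lincRNA signal. Malat1 (ENSMUSG00000092341, chromosome 19 from 5795690 to 5802672, minus strand) took 33.9% of the counts of the 74 and Neat1 (ENSMUSG00000092274, chromosome 19 from 5824708 to 5845478, minus strand) 24.99%, and both lie on chromosome 19 with 22035 bases between them. Malat1 stood at 447, 403 and 1250 CPM in XWT and at 1215, 1243 and 1219 CPM in XKO. XWT 1 and 2 were low, while XWT 3 was above all 3 XKO libraries, so the groups overlapped. The log2 fold change was 0.81 ± 0.53 (edgeR adjusted p = 0.385), and without XWT 3 it was 1.53 ± 0.06 (edgeR adjusted p = 3.72e-08).

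Neat1 was likewise low in XWT 1 and 2. It stood at 244, 340 and 795 CPM in XWT and at 1020, 968 and 882 CPM in XKO, with XWT 3 close below the lowest XKO library and no overlap. Its log2 fold change was 1.06 ± 0.51 (edgeR adjusted p = 0.255), and 1.71 ± 0.15 without XWT 3 (edgeR adjusted p = 0.00061). edgeR called neither RNA with all 6 libraries and both once XWT 3 was left out. For both RNAs XWT 3 was the XWT library nearest to XKO, so leaving it out had to widen the difference. With all 6 libraries, limma-voom called both (adjusted p = 0.0432 for Malat1 and 0.0173 for Neat1). Frmd8, a membrane adaptor and the coding gene nearest to Neat1, did not pass the test, at a log2 fold change of -0.17 ± 0.08 (edgeR adjusted p = 0.14).

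**Figure D1:**
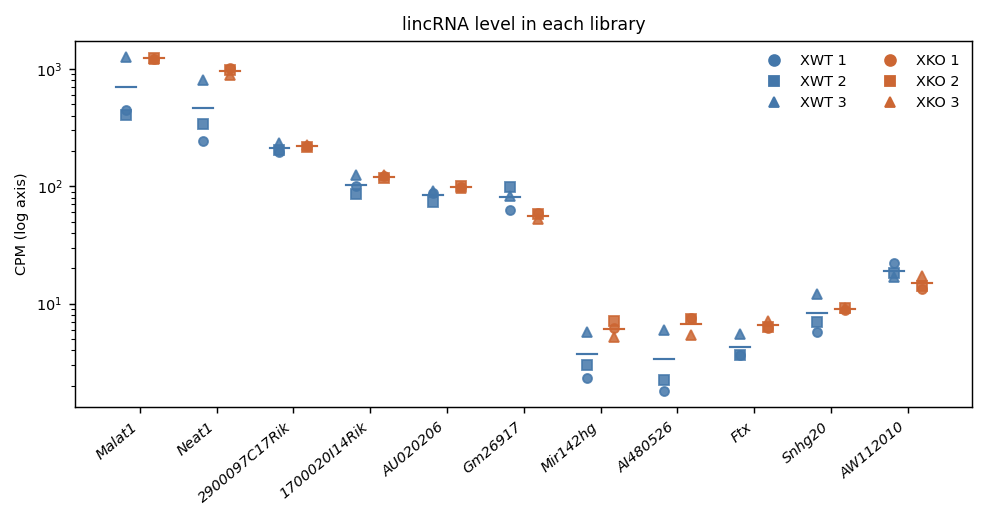
Level in CPM (log axis) of the 6 most abundant lincRNAs and of Mir142hg, AI480526, Ftx, Snhg20 and AW112010, with 1 point per library (XWT blue, XKO orange; the marker gives the replicate number) and a line at each group's mean. For Malat1 the triangle of XWT 3 at 1250 CPM sits with the XKO libraries, apart from XWT 1 and 2.

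The share of each library's counts taken by the 74 lincRNAs rested mostly on these RNAs. It was 0.172, 0.177 and 0.334% in the XWT libraries and 0.355, 0.351 and 0.337% in the XKO libraries. Every XKO library was above every XWT library, by 0.12 percentage points on average (two-sided exact permutation p = 0.1, the smallest that 3 against 3 can give). Without Malat1 and Neat1 the difference was 0.0112 points (exact permutation p = 0.4), and XWT 3, at 0.127%, was the highest of the 6 libraries.

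The next lincRNAs by total count differed less between the groups. Per length, 2900097C17Rik was the second most abundant after Malat1, at 42.7 ± 3.93 FPKM in XWT and 44.5 ± 0.915 in XKO (SD, n = 3). RefSeq lists it as Norad, a cytoplasmic RNA that binds Pumilio proteins. Its CPM were 195, 202 and 234 in XWT and 218, 216 and 225 in XKO, with overlapping groups (log2 fold change 0.07 ± 0.07, edgeR adjusted p = 0.582). Its nearest coding gene Cnbd2 was lower in XKO (-1.34 ± 0.13 on the log2 scale, edgeR adjusted p = 1.04e-05).

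1700020I14Rik, listed by RefSeq as Oip5os1 and known as Cyrano, carries a highly paired site for miR-7. It stood at 99.9, 85.8 and 124 CPM in XWT and 121, 117 and 124 CPM in XKO. XWT 3 was again level with XKO, and the change of 0.23 ± 0.11 did not pass the test (edgeR adjusted p = 0.181; 0.00296 without XWT 3). Its neighbour Oip5, a centromere protein, had a log2 fold change of -0.14 ± 0.16. AU020206 stood at 87.6, 73.6 and 91.5 CPM in XWT and 97.8, 101 and 95.7 CPM in XKO, without overlap but short of the threshold (0.22 ± 0.08, edgeR adjusted p = 0.083). Beside it, Akap13, a kinase anchor, had -0.01 ± 0.06. The sixth, Gm26917, is described with the lower lincRNAs.

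AW112010, an LPS-induced RNA of macrophages that is also translated, leaned the other way. It stood at 22.1, 18.1 and 16.9 CPM in XWT and 13.4, 14.2 and 17.2 CPM in XKO. XKO 3 lay above XWT 3, and the log2 fold change of -0.35 ± 0.12 missed the threshold (edgeR adjusted p = 0.0722; 0.026 without XWT 3). A list of non-coding RNAs known in macrophages from other work, not all of the biotype lincRNA, had 15 names. Of these, 14 had a row, since Norad is the RefSeq name of 2900097C17Rik. Among the 74 were 4 of them (Malat1, Neat1, 2900097C17Rik and AW112010). Of the 12 tested, edgeR called 0, with 2 higher and 1 lower at an unadjusted p under 0.05; DESeq2 also called 0 and limma-voom called 4 higher. Without XWT 3, edgeR called 5 higher (Malat1, Neat1, Tug1, Mir22hg and Lncpint) and 1 lower, AW112010. The background without XWT 3 was 14.2% of all tested genes higher and 14.8% lower.

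The 12 higher lincRNAs rose by 0.35 to 0.83 on the log2 scale, and in each of them all 3 XKO libraries were above all 3 XWT libraries. Of these, 3 have a nearest coding gene that rose too. Gdap10 (ENSMUSG00000096954, chromosome 12 from 32821872 to 32826904, plus strand) lies inside the span of Nampt, the rate-limiting enzyme of NAD salvage, on the same strand and without exon overlap. Gdap10 stood at 9.53, 8.11 and 13.9 CPM in XWT and 18, 19.4 and 18 CPM in XKO, with XWT 3 the highest of its group but below every XKO library (log2 fold change 0.81 ± 0.16, edgeR adjusted p = 0.00645). Nampt rose as well, from 226, 195 and 219 to 259, 273 and 277 CPM (0.34 ± 0.07, edgeR adjusted p = 0.00665). Since Gdap10 lies in an intron of a gene with 43691 summed counts, unspliced Nampt RNA and Gdap10 cannot be told apart.

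Gm34643 (ENSMUSG00000115855, chromosome 14 from 103012908 to 103024457, plus strand) lies 22520 bases before Acod1, which makes itaconate in activated macrophages, on the same strand. It stood at 8.97, 6.4 and 8.77 CPM in XWT and 12.1, 12.6 and 12 CPM in XKO (0.61 ± 0.13, edgeR adjusted p = 0.00827). XWT 2 was the lowest library for both genes, and neither overlapped between the groups. Acod1 stood at 266, 192 and 218 CPM in XWT and 372, 398 and 389 CPM in XKO (0.78 ± 0.10, edgeR adjusted p = 0.000255). This is the member whose start region printed above holds an AP-1 motif.

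Gm45752 (ENSMUSG00000110457, chromosome 8 from 105973097 to 105985879, plus strand) overlaps the dipeptidase genes Dpep2 and Dpep3, both on the other strand, with 18.6% of its exon bases in exons of other genes. It rose from 2.23, 1.95 and 3.58 to 4.57, 3.7 and 4.6 CPM (0.72 ± 0.22, edgeR adjusted p = 0.0439). Dpep3, from 0.482, 0.37 and 0.608 to 1.87, 1.4 and 1.14 CPM, changed in the same direction (1.58 ± 0.33, edgeR adjusted p = 0.00703). Dpep2 (ENSMUSG00000053687) rose too, from 5.41, 4.91 and 10.5 to 15.9, 12.6 and 13.1 CPM (0.99 ± 0.27, edgeR adjusted p = 0.0459). Another, lower row of Dpep2 (ENSMUSG00000115067), which Gm45752 also overlaps, did not pass the test (0.65 ± 0.32, edgeR adjusted p = 0.189). The sources used here do not give the strand setting of the counting, so reads of such partners cannot be told apart.

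For the other 9 higher lincRNAs the nearest coding gene, taken by the distance between starts where several overlap, was not called or not tested. Gm10419 (ENSMUSG00000072769, chromosome 5 from 108367769 to 108378239, plus strand), beside the predicted gene Gm42517, stood at 3.56, 3.37 and 4.54 CPM in XWT and 7.05, 6.34 and 6.23 CPM in XKO (0.77 ± 0.15, edgeR adjusted p = 0.00500). Its printed start region is the richest in G and C of the 36, at 84%. Gm46224 (ENSMUSG00000112843, chromosome 10 from 51526340 to 51531161, plus strand) rose from 2.63, 2.89 and 3.55 to 4.8, 5.26 and 5.19 CPM (0.74 ± 0.16, edgeR adjusted p = 0.00925). Gm16907 (ENSMUSG00000097242, chromosome 13 from 63289601 to 63297147, minus strand) rose from 4.86, 5.89 and 9.28 to 12.3, 12.2 and 11.2 CPM (0.83 ± 0.19, edgeR adjusted p = 0.0151). Gm16907 had the largest fold change of the 12 and overlaps 2 genes: Fancc, of the Fanconi anaemia DNA repair pathway, at 0.13 ± 0.12, and 2010111I01Rik, an aminopeptidase, which was higher in XKO (0.33 ± 0.10, edgeR adjusted p = 0.039).

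Dubr (ENSMUSG00000022639, chromosome 16 from 50719294 to 50732773, minus strand), known from muscle cell differentiation, was the most abundant of the 12 and had the smallest change. It stood at 29.7, 25.1 and 33.3 CPM in XWT and 38.2, 37 and 37.2 CPM in XKO (0.35 ± 0.09, edgeR adjusted p = 0.0266). AI504432 (ENSMUSG00000056145, chromosome 3 from 107039504 to 107054347, plus strand) stood at 6.19, 4.68 and 6.43 CPM in XWT and 8.24, 8.29 and 10.3 CPM in XKO (0.64 ± 0.15, edgeR adjusted p = 0.0142). Its neighbour Kcna3, a potassium channel of immune cells 1434 bases away, had 0.56 ± 0.19 and missed the threshold (edgeR adjusted p = 0.0672).

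The remaining higher lincRNAs were low in level and their functions are not known. Gm37168 (ENSMUSG00000103174, chromosome 1 from 191267178 to 191288714, plus strand) went from 3.41, 3.5 and 4.83 to 7.6, 6.14 and 5.87 CPM (0.74 ± 0.17, edgeR adjusted p = 0.013), beside Nenf, a secreted neurotrophic factor, at -0.16 ± 0.10. Gm21781 (ENSMUSG00000095123, chromosome 10 from 4391587 to 4396424, plus strand) went from 4.97, 4.31 and 6.56 to 8.11, 9.13 and 7.24 CPM (0.63 ± 0.16, edgeR adjusted p = 0.0222), beside Zbtb2, a zinc finger repressor, at -0.11 ± 0.09. Gm28187 (ENSMUSG00000099375, chromosome 1 from 101892958 to 101895091, minus strand) went from 2.45, 1.58 and 3.39 to 4.03, 4.13 and 4.8 CPM (0.80 ± 0.23, edgeR adjusted p = 0.0362), with its nearest coding gene, Cntnap5b, 1407016 bases away and at 0 in all libraries. In all 3, XWT 3 was the highest XWT library. Ftx is given with the hosts.

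**Figure D2:**
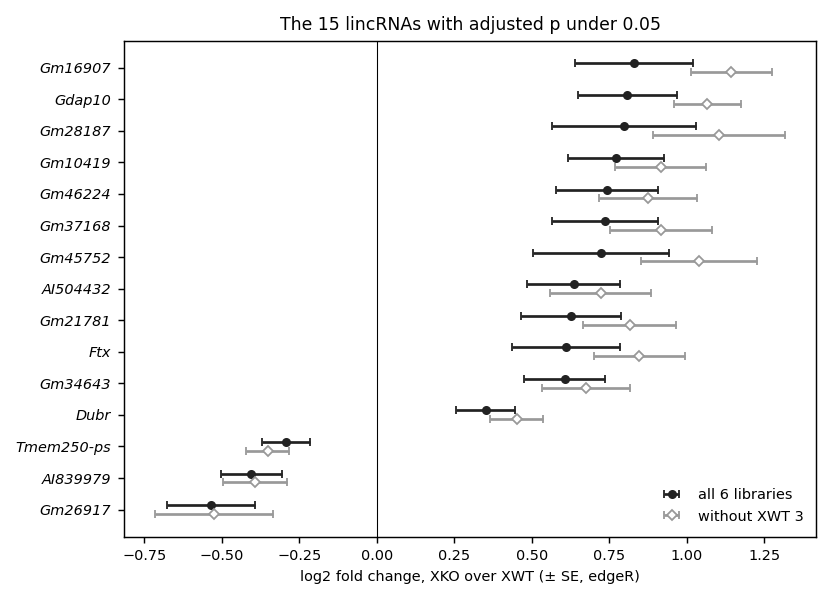
Log2 fold change of XKO over XWT (± SE, edgeR) of the 15 lincRNAs with an adjusted p under 0.05, with all 6 libraries (filled) and without XWT 3 (open). The 12 rises lie between 0.35 and 0.83 and each is larger without XWT 3, while the 3 falls lie between -0.53 and -0.29.

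Which of these calls held depended on single libraries. Gdap10, Gm34643 and Gm10419 kept an adjusted p under 0.05 when any 1 of the 6 libraries was left out, and in all 15 alternative analyses, which include those 6. Dubr, Ftx, Gm45752 and Gm28187 each lost it without any 1 of XWT 1, XWT 2, XKO 1, XKO 2 or XKO 3. Gm21781 lost it without XWT 1, XWT 2, XKO 1 or XKO 2, Gm16907 without XWT 2, XKO 1 or XKO 2, AI504432 without XWT 2 or XKO 3, Gm37168 without XWT 2 or XKO 1, and Gm46224 without XKO 2 or XKO 3. No fold change of a called lincRNA turned its direction in any of them.

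The 3 lower lincRNAs fell by 0.29 to 0.53 on the log2 scale, each without overlap between the groups. AI839979 (ENSMUSG00000107355, chromosome 5 from 31569595 to 31571397, minus strand) stood at 12.8, 13.2 and 13.3 CPM in XWT and 9.63, 10.4 and 9.63 CPM in XKO (-0.41 ± 0.10, edgeR adjusted p = 0.0165). Its neighbour Slc4a1ap, an adaptor of the anion exchanger, had -0.04 ± 0.08. The call was lost without any 1 XKO library. Tmem250-ps (ENSMUSG00000087679, chromosome 2 from 26136814 to 26140521, minus strand) fell from 43.2, 46.3 and 39.5 to 35.9, 35.1 and 34.1 CPM (-0.29 ± 0.08, edgeR adjusted p = 0.0233), and lost the call without XWT 2 or any 1 XKO library. Nacc2, a transcriptional repressor 13594 bases away on the same strand, fell as well, from 73.7, 79.7 and 71.6 to 59.7, 57.9 and 60.7 CPM (-0.34 ± 0.07, edgeR adjusted p = 0.00515).

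Gm26917 (ENSMUSG00000097971, chromosome 17 from 39843013 to 39846341, plus strand) stood at 62.7, 98.7 and 82.7 CPM in XWT and 58.7, 57.7 and 52.2 CPM in XKO. XWT 1 lay close above the highest XKO library (-0.53 ± 0.14, edgeR adjusted p = 0.0384), and the call was lost without XWT 2, XWT 3 or any 1 XKO library. The row ends 12 bases from the next gene, CT010467.1, a ribosomal RNA gene on the other strand. CT010467.1 stood at 1371, 802 and 1089 CPM in XWT and 222, 188 and 609 CPM in XKO, also lower in every XKO library (-1.68 ± 0.59, edgeR adjusted p = 0.148). The part of this neighbour in the fall of Gm26917 was not tested.

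Among microRNA hosts, Ftx, a regulator of Xist in the X-inactivation centre (ENSMUSG00000086370, chromosome X from 103560907 to 103623754, minus strand), was higher. It stood at 3.63, 3.67 and 5.57 CPM in XWT and 6.18, 6.37 and 7.18 CPM in XKO, without overlap and with XWT 3 nearest to XKO (0.61 ± 0.17, edgeR adjusted p = 0.0338). Mir142hg, host of the blood-cell microRNA miR-142, stood at 2.34, 3.03 and 5.76 CPM in XWT and 6.15, 7.08 and 5.16 CPM in XKO. XWT 3 lay among the XKO libraries, and the log2 fold change of 0.71 ± 0.28 passed the test without XWT 3 (1.19 ± 0.19, edgeR adjusted p = 0.116 with and 0.00134 without it). Its neighbour Tspoap1 had 0.34 ± 0.28. The let-7d host 6720427I07Rik had -0.18 ± 0.19 (edgeR adjusted p = 0.555). Of 7 tested genes on the list of microRNA hosts, 2 were higher, beside 6.00% of all tested genes, and 7 were above 0. Without XWT 3, 5 were higher, beside 14.2% of all tested genes, and without any other single library 1. The other higher one was Mir17hg, host of the miR-17-92 cluster, which fell short of the level rule with 545 counts and stood at 2.00, 1.88 and 2.05 CPM in XWT and 3.99, 4.35 and 3.69 CPM in XKO (1.02 ± 0.17, edgeR adjusted p = 0.00177).

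The snoRNA hosts among the 74 were Snhg6, Snhg12 and Snhg20, and none passed the test. Snhg6 stood at 12.2 ± 0.885 CPM in XWT and 12.5 ± 1.05 CPM in XKO, and Snhg12 at 6.44 ± 0.368 and 7.21 ± 0.426 CPM (SD, n = 3). Snhg20 stood at 5.75, 7.03 and 12.1 CPM in XWT and 8.76, 9.13 and 9.17 CPM in XKO. Here XWT 3 was the highest of all 6 libraries, and XWT 1 and 2 the lowest. Of 13 tested snoRNA hosts of any biotype, 1 was higher, Snhg17 (0.65 ± 0.15, edgeR adjusted p = 0.0116), and 12 of 13 were above 0. The count was 6 without XWT 3 (Snhg17, Snhg20, Gas5, Snhg1, Snhg14 and Snhg11) and 0 without XWT 1, XWT 2 or XKO 2 (1, 1 and 3 at an unadjusted p under 0.05). As background, 6.00% of all tested genes were higher with all 6 libraries and 14.2% without XWT 3.

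XWT 3 lay above both XWT 1 and XWT 2 in 49 of the 74 lincRNAs (66.2%), beside 34.0% of all tested genes. This was not particular to lincRNAs. With at least 600 counts, the share was 56.8% of 44 antisense genes, 62.5% of 48 processed transcripts and 76.9% of 26 TEC genes. It was 28.2% of 10015 protein-coding genes, 15.1% of 218 processed pseudogenes and 45.5% of 11 bidirectional promoter lncRNAs. These shares carry no test. The median coefficient of variation of the 74 was 17.8% in XWT and 7.16% in XKO, against 10.6% and 5.28% over all tested genes. In XWT and with at least 600 counts, it was 17.7% in antisense genes, 13.4% in processed transcripts and 27.6% in TEC genes. It was 8.48% in protein-coding genes, 19.2% in processed pseudogenes and 9.35% in bidirectional promoter lncRNAs. Without XWT 3, 33 lincRNAs (44.6%) were higher and 4 lower, with 14.2% and 14.8% of all tested genes as background. The median log2 fold change of the 74 was then 0.38. With at least 600 counts, 29.5% of antisense genes, 35.4% of processed transcripts and 61.5% of TEC genes were higher without XWT 3. So were 14.7% of protein-coding genes, 4.59% of processed pseudogenes and 9.09% of bidirectional promoter lncRNAs. Of single lincRNAs, AI480526 stood at 1.82, 2.26 and 6.01 CPM in XWT and 7.5, 7.34 and 5.38 CPM in XKO and went from 0.99 ± 0.44 (edgeR adjusted p = 0.185) to 1.72 ± 0.20 without XWT 3 (edgeR adjusted p = 0.000194). It was singled out after its values were seen.

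**Figure D3:**
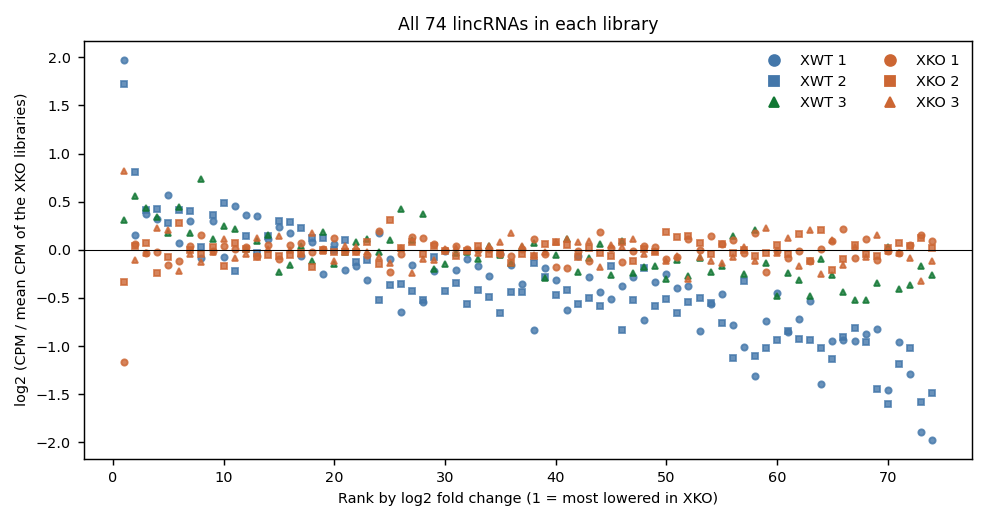
Level of each of the 74 lincRNAs in each library as log2 of its CPM over the mean CPM of the XKO libraries, ordered by log2 fold change (XWT 1 and 2 blue, XWT 3 green, XKO orange). On the right, where lincRNAs were higher in XKO, the green triangles mostly lie between XWT 1 and 2 and the XKO libraries. In 54 of the 74, XWT 3 was nearer to the XKO mean than to that of XWT 1 and 2 (73.0%), beside 56.5% of all tested genes. With at least 600 counts, this held for 77.3% of antisense genes, 72.9% of processed transcripts and 84.6% of TEC genes. It held for 56.7% of protein-coding genes, 69.7% of processed pseudogenes and 54.5% of bidirectional promoter lncRNAs.

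Most other non-coding classes of the table leaned the same way, while the median of coding genes lay near 0. The 279 tested lincRNAs under the level rule had a median log2 fold change of 0.26, close to the 0.24 of the 74, and 10 were higher (3.58%, below the 6.00% of all tested genes). The median was 0.26 in 197 processed transcripts, 0.37 in 356 antisense genes, 0.49 in 36 sense intronic genes and 0.54 in 285 genes of the biotype TEC. It was -0.01 in 12074 protein-coding genes and -0.09 in 753 processed pseudogenes. These classes hold tested genes at any count, unlike the 74. Among genes with at least 600 counts, the median was 0.18 in 48 processed transcripts, 0.21 in 44 antisense genes and 0.42 in 26 TEC genes. At the same rule it was -0.01 in 10015 protein-coding genes and -0.11 in 218 processed pseudogenes. These classes are given as medians with no test. Scaled by library size alone, the median of all tested genes moved by 0.07 and that of the 74 stood at 0.30.

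**Figure D4:**
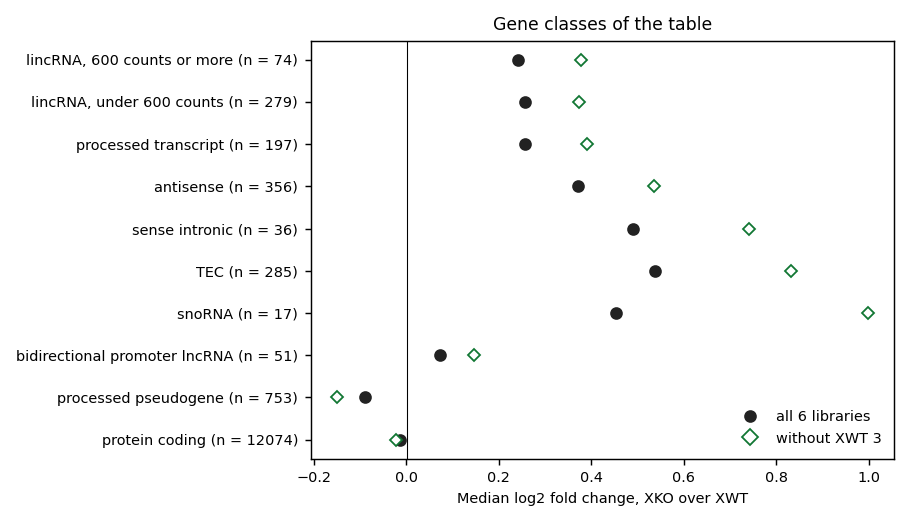
Median log2 fold change of XKO over XWT by gene class, with all 6 libraries (filled) and without XWT 3 (open), and a line at the median of all tested genes. The lincRNAs at 0.24 and every other class shown, apart from processed pseudogenes, lie to the right of protein-coding genes at -0.01, and farther without XWT 3. Classes other than lincRNAs hold tested genes at any count.

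The median change was larger in longer lincRNAs. The 41 members of at least 2500 bases of gene length had a median log2 fold change of 0.29 and the 33 shorter ones 0.16, and across the 74 Spearman's rho of the change with length was 0.32 and with GC content -0.21, as descriptions over genes that share libraries. Over all tested genes, rho was 0.08 with length and -0.31 with GC content. With both trends removed from each library, the median of the 74 was 0.20 and 12 were higher, 11 of them among the 12 named above, while 5 were lower, the 3 named above included. The 41 lincRNAs that overlap another gene had a median of 0.28 and the 33 without overlap 0.22.

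Of the nearest coding genes of the 74, 59 were tested, and 34 of these changed in the direction of their lincRNA and 25 in the other, counted by sign alone. Among the neighbours, 8 were higher and 4 lower, with 6.00% and 7.99% of all tested genes as background. In 4 pairs both were called, each in the same direction: Gdap10 and Nampt, Gm34643 and Acod1, and Gm45752 and Dpep3 higher, and Tmem250-ps and Nacc2 lower. Across the 59 pairs Spearman's rho was 0.27, as a description over pairs measured in the same libraries. Where a lincRNA overlaps several coding genes, the one with the nearer start was taken. Of 4 further genes overlapped in this way by 3 lincRNAs, 2 were higher, 2010111I01Rik with Gm16907 and Dpep2 (ENSMUSG00000053687) with Gm45752. Of 8 called neighbours of uncalled lincRNAs, 4 had the sign of their lincRNA and 4 the opposite one. The first kind included Nlrc5, an activator of MHC class I genes overlapped by 9330175E14Rik (0.35 and 0.29 on the log2 scale), and Eif2ak2, the antiviral kinase PKR overlapped by Gm26637 (0.31 and 0.32). In both pairs the lincRNA's own change missed the threshold (edgeR adjusted p = 0.269 and 0.332). The second kind were Mafg at 0.30 beside Gm17586 at -0.12, Kif3c at -0.28 beside Gm26520 at 0.44, Sec14l1 at -0.23 beside Snhg20 at 0.11, and Cnbd2 beside 2900097C17Rik, given above.

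**Figure D5:**
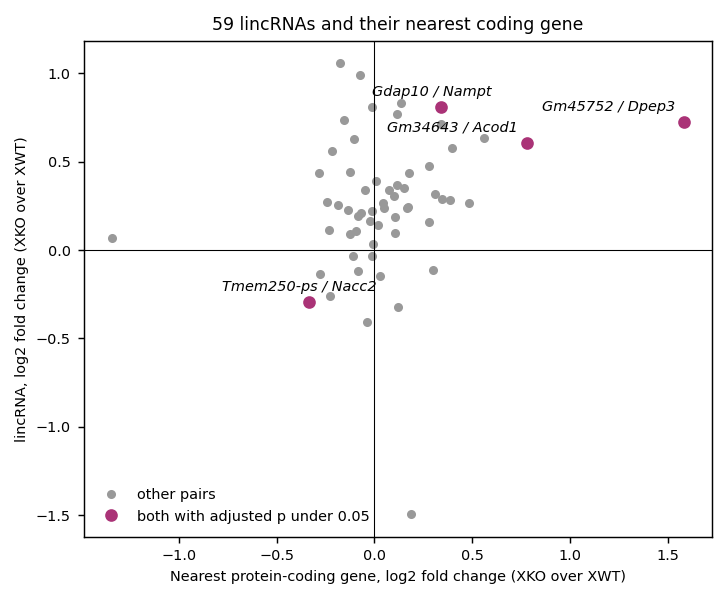
Log2 fold change of XKO over XWT of 59 lincRNAs (vertical) against that of their nearest protein-coding gene (horizontal), 1 point per pair. The 4 labelled pairs, in which both genes had an adjusted p under 0.05, lie where both log2 fold changes have the same sign.

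The proteins that work with these RNAs were examined as lists. Of 12 paraspeckle proteins, partners of Neat1, 4 were higher by edgeR: Cpsf6 (0.40 ± 0.08) and Cpsf7 (0.25 ± 0.08), of the cleavage factor that acts on Neat1 3′ ends, Pspc1 (0.30 ± 0.08), a core paraspeckle protein, and the nuclear matrix protein Matr3 (0.28 ± 0.09). The core proteins Nono (-0.04 ± 0.07) and Sfpq (0.17 ± 0.07) did not pass the test. Nor did Nudt21 (-0.05 ± 0.08), of the same cleavage factor as Cpsf6 and Cpsf7. The median of the list was 0.21. The count of 4 was 8 without XWT 3, 1 without any 1 of the other 5 libraries and 2 with length and GC trends removed. Of 8 nuclear speckle proteins, 4 were higher: the scaffold proteins Srrm2 (0.31 ± 0.09) and Son (0.26 ± 0.07), and the splicing factors Srsf1 (0.24 ± 0.07) and Srsf2 (0.30 ± 0.08), with a median of 0.25. Here the count was 6 without XWT 3, 1 without XWT 1, and 0 without XWT 2 or any 1 XKO library (5 at an unadjusted p under 0.05 in each of these). Of all tested genes, 6.00% were higher with all 6 libraries and 14.2% without XWT 3.

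Genes of RNA decay and microRNA processing were counted in the same way. Of 14 tested genes of the nuclear RNA exosome and its adaptors, 1 was higher, the catalytic subunit Dis3 (0.33 ± 0.09, edgeR adjusted p = 0.0315). Of 10 nonsense-mediated decay factors, 1 was higher, Upf3b (0.59 ± 0.10, edgeR adjusted p = 0.00226). Of 7 microRNA processing genes, 1 was higher, the Argonaute protein Ago2 (0.24 ± 0.07, edgeR adjusted p = 0.0269). Without XWT 3, the exosome list had 3 higher, the decay factors 2, and microRNA processing 1 higher and 1 lower. As background, 6.00% of all tested genes were higher with all 6 libraries. Without XWT 3, 14.2% were higher and 14.8% lower. Dis3 was not called without any 1 of the other 5 libraries, and Ago2 not without XWT 2 or any 1 XKO library. Airn and Kcnq1ot1, tested among the imprinted lincRNAs, had 0.54 ± 0.18 and 0.73 ± 0.24 and missed edgeR's threshold with all 6 libraries (edgeR adjusted p = 0.0605 and 0.0683). Both were higher by edgeR without XWT 3 (0.80 ± 0.15 and 1.14 ± 0.15, edgeR adjusted p = 0.00291 and 0.000349), and by DESeq2, limma-voom and the fit with a replicate block with all 6.

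Some rows do not measure a lincRNA alone. For 5 of the 74, stretches that together cover over 50% of the longest transcript matched transcripts of another gene at 95% identity or more. Gm10076 matched Rpl41, a ribosomal protein gene with 102107 counts, over 99.7% of its length, and its level is therefore uncertain: it stood at 27.6, 23.2 and 8.67 CPM in XWT and 3.12, 5.56 and 12.4 CPM in XKO. The others were 2900097C17Rik, Gm36161, Gm42047 and AI480526, which shared 51.6% of their longest transcript with Gm7292, 100% with Gm21188, 64.2% with Gm48362 and 72.5% with Gm38102, respectively. Their levels may be affected too, and how far was not tested. Exons of 30 members overlapped exons of other genes, in 14 of them over more than 10% of their bases. The level rule was passed most narrowly by Gm7160 with 605 counts, Gm20342 with 607 and Gm28187 with 618, and missed by 1110019D14Rik with 597, F730311O21Rik with 590 and 2310040G24Rik with 583.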

How the data were processed

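RNA of 6 BMDM samples was sequenced, grouped by their titles. Trizol and a NEBNext Ultra kit were used, per the labels' protocols. Bowtie 0.12.2 and the builds mm8 and mm10 appear in the submitters' processing notes without a role; counter, annotation and strand are not given there. The authors deposited 1 table with raw counts, FPKM, gene length, group means (a signal), a log2 fold change and p-values, per the file headers. Of the 74 rows, 71 had the same coordinates in GENCODE M21 (GRCm38).

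Counts were tested with edgeR 4.0.16 in R 4.3.3 (filterByExpr, TMM, robust quasi-likelihood, 4 residual degrees of freedom), checked on simulated counts. CPM are TMM-scaled, and the SE is log2 fold change over root F. The biological coefficient of variation was 0.0865. Transcript copies were sought with blastn 2.17.0 (at least 100 bases). Alternatives were other scalings, filters, member rules, DESeq2 1.42.0, limma-voom (limma 3.58.1), a replicate block and single libraries left out; quality weights, length and GC correction and removal of copies were chosen after seeing the data. The members and lists were chosen with earlier results of these data known. Named are Xbp1, the 6 lincRNAs with most counts, every called one, list members and nearest coding genes, of which some are not reported here.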

Additional observations from a re-analysis of the deposited data

How the results depend on the processing

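With 12 higher and 3 lower lincRNAs as reported, the numbers were 12 and 3 with RLE size factors or DESeq2, 11 and 3 with a stricter filter, and 15 and 4 with limma-voom. Without a filter, 22 were higher. Scaling by library size alone gave 1 lower (among all tested genes 1158 higher and 749 lower, against 860 and 1145). Quality weights per library gave 18 higher and 5 lower, and removal of length and GC trends 5 lower. Leaving out 1 library gave 4 to 33 higher and 0 to 4 lower: 7 higher without XWT 1, 4 without XWT 2 (1 lower), 33 without XWT 3, 6 without XKO 3, and 5 without either of the other XKO libraries. The calls among all tested genes moved in the same way. Against 860 higher and 1145 lower, there were 639 and 975 without XWT 1, 460 and 749 without XWT 2, and 2073 and 2164 without XWT 3. Without XKO 1, 2 and 3, in this order, 316, 274 and 300 were higher and 599, 532 and 598 lower. The 0 lower by edgeR without XKO 1, 2 or 3 compares with 3, 5 and 6 at an unadjusted p under 0.05. A rule of at least 1200 counts gave 6 higher of 37, lincRNAs without gene overlap 4 of 33, and established symbols 3 higher and 1 lower of 13. An adjusted p under 0.01 left 4 higher and 0 lower, against 7 and 1 with DESeq2. In all of these the median log2 fold change of the 74 stayed above 0 (0.14 to 0.38). The share of counts differed by 0.0920 to 0.173 points with 1 library left out. Over the alternatives of the named genes, 521 values kept direction and call, 55 lost the call, 24 gained it and 0 reversed. With the replicate number as a block, 15 were higher and 3 lower; same-numbered libraries were not paired by the labels and their deviations correlated at -0.043, -0.036 and -0.054. Leaving out a library leaves 3 residual degrees of freedom, so fewer calls follow in part from fewer samples. At a few CPM, counting error limits the lower-level lincRNAs.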
